A study of Mus musculus with 6 samples.

Results

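High-mitochondrial cells were the single cells that lay over a limit on mitochondrial RNA in an experiment on early T-cell and innate lymphoid cell (ILC) progenitors. A cell belonged to them if it had at least 200 genes, at most 2000 unique molecular identifiers (UMIs, each standing for 1 captured RNA molecule) and over 30% of its UMIs on genes of the mitochondrial genome, whose symbols start with mt-. Of 83807 cells within the gene and UMI limits, 23136 were over 30% and 60671 were at or under it. The study states the same limits but kept more cells than the deposited counts leave under them. This held for DN1 and DN2b of both genotypes and for DN2a of the genotype without the enhancer described below. Some cells called high-mitochondrial here may therefore have been kept there. Because the cells were chosen by their mitochondrial share, that share is a description here and supports nothing, and the tests concern the other genes, with each library's cells of at most 30% as the comparison and with mt- genes left out of all totals. Levels are CPM, counts scaled to a total of 1e6 non-mitochondrial UMIs, over the summed cells of a class.

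The cells came from bone marrow progenitors that were grown on OP9-DL1, a bone marrow stromal cell line that carries a Notch ligand and lets T-cell development run in a dish. DN1, DN2a and DN2b progenitors, which are successive stages before and around T-cell commitment, were sorted and put back into culture for 4 days. The study's methods give the cytokines Flt3-L and IL-7 for all T-cell cultures, and IL-7 with IL-2, SCF and IL-15 for a set of experiments on NK cells and ILCs that includes this one. WT cells carried a yellow fluorescent reporter in the 3′ untranslated region of both copies of Bcl11b, the transcription factor that fixes T-cell fate, and ΔTE cells carried the same reporter and lacked the timing enhancer of Bcl11b on both copies. Both strains were C57BL/6 mice of 2 to 4 months, and the 6 libraries were 1 per genotype and starting stage. Progenitors were pooled from 6 to 8 mice per batch, and mice of both sexes were used. The progenitors were scraped off together with attached stromal cells and passed through a mesh meant to hold stromal cells back. The labels call the material nuclear RNA, while the protocol speaks of fixed cells and then of thawed nuclei. With 1 library per condition, no difference between genotypes has a replicate check. The test between classes treats the 6 libraries as its replicates, and its p-values measure only the spread between them.

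The mitochondrial genome encodes 2 ribosomal RNAs, a set of transfer RNAs and the messengers of a few respiratory-chain subunits, and it is transcribed inside the organelle. In single-cell data a high mitochondrial share is widely used as a mark of broken or dying cells, because RNA leaks out of the cytoplasm while mitochondria stay behind. Cell types also differ in how many mitochondria they hold, so that a single limit can act unequally on them. Bone marrow stromal cells, as adherent fibroblast-like cells, make collagens and other matrix proteins that blood progenitors do not make.

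The share of cells over 30% was 35.3% in WT DN1, 2.59% in WT DN2a, 40.9% in WT DN2b, 30.6% in ΔTE DN1, 26.8% in ΔTE DN2a and 56.6% in ΔTE DN2b. In cells this was 5949, 518, 3440, 4548, 4240 and 4441, in the same order. WT DN2a stood apart from the other 5 libraries, with a median mitochondrial share of 13.6% over all its cells against 24.1% to 31.7%. Many members lay close to the limit. In the order given above, 2736, 371, 1404, 2249, 2157 and 1521 cells had over 30% and at most 35%, and 3573, 1203, 1727, 3465, 3079 and 1432 cells lay just outside it, between 25% and 30%. Only 0 to 529 cells of a library were over 50%. The limit thus fell within a range of shares that held many cells on both sides of it. No barcode was found in more than 1 library.

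Outside the mitochondrial genes, the high-mitochondrial cells as a whole had medians close to those of the rest. Their median was 362 non-mitochondrial UMIs in WT DN1 against 360 in the low class, 309 against 332 in WT DN2a, 352 against 353 in WT DN2b, 352 against 378 in ΔTE DN1, 358 against 359 in ΔTE DN2a and 332 against 328 in ΔTE DN2b. Among cells without a UMI of the stromal genes described below, the high class had the lower median in 6 of 6 libraries, 280 to 342 against 323 to 374. What set them apart was the count of mitochondrial UMIs, with medians of 156 to 216 in the high class and 53 to 108 in the low class. Summed over a class, the high-mitochondrial cells gave 191500 non-mitochondrial UMIs in WT DN2a and 1460325 to 2575757 in the other libraries, so that values for WT DN2a are the least precise.

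Nearly all mitochondrial UMIs lay on the 2 ribosomal RNAs, mt-Rnr1 of the small subunit and mt-Rnr2 of the large subunit. Together they made up 92.4% of the mitochondrial UMIs in high-mitochondrial cells and 89.9% in the low class (means of 6 libraries), a difference of 2.47 percentage points ± 0.789 (SD, n = 6) that was above 0 in 6 of 6 libraries. The share on mt-Rnr1 was 46.5% against 43.4%, and that on mt-Rnr2 was 45.8% against 46.5%. Messengers took 7.54% against 9.96%. Of these, mt-Nd5, mt-Cytb, mt-Nd4, mt-Nd2 and mt-Nd1 each had over 1% of the mitochondrial UMIs in both classes, while mt-Co2, mt-Co3, mt-Atp6, mt-Atp8, mt-Nd3 and mt-Nd4l had under 0.01% each. Relative to the non-mitochondrial RNA the messengers were still more abundant in the high class. In cells without a stromal UMI, defined below, there were 40.3 mitochondrial messenger UMIs per 1000 non-mitochondrial UMIs against 26.0, and 496 ribosomal RNA UMIs against 239. Since the count that put a cell over the limit was mostly ribosomal RNA, these shares are not independent of the choice and were given no p.

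The cell barcodes tell 3 reverse-transcription wells apart in every library. No source used here says how its cells were divided among them, and the wells are not treated as replicate cultures here. The share over 30% differed widely between wells of some libraries. In ΔTE DN2a it was 24.5%, 1.84% and 48.0% in the 3 wells, a 26.0-fold range. In WT DN1 it was 49.9%, 39.6% and 15.0%, and in WT DN2b 60.7%, 39.3% and 25.7%. The wells of ΔTE DN1 stayed together at 29.2%, 31.5% and 31.4%, and those of ΔTE DN2b had 42.1%, 64.3% and 60.3%. All 3 wells of WT DN2a were low, at 1.90%, 1.48% and 4.43%. The exact 95% binomial (Clopper-Pearson) interval of each of these shares spanned at most 4.2 percentage points, counting error only. Median non-mitochondrial UMIs varied much less, from 318 to 392 over the 18 wells.

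**Figure D1:**
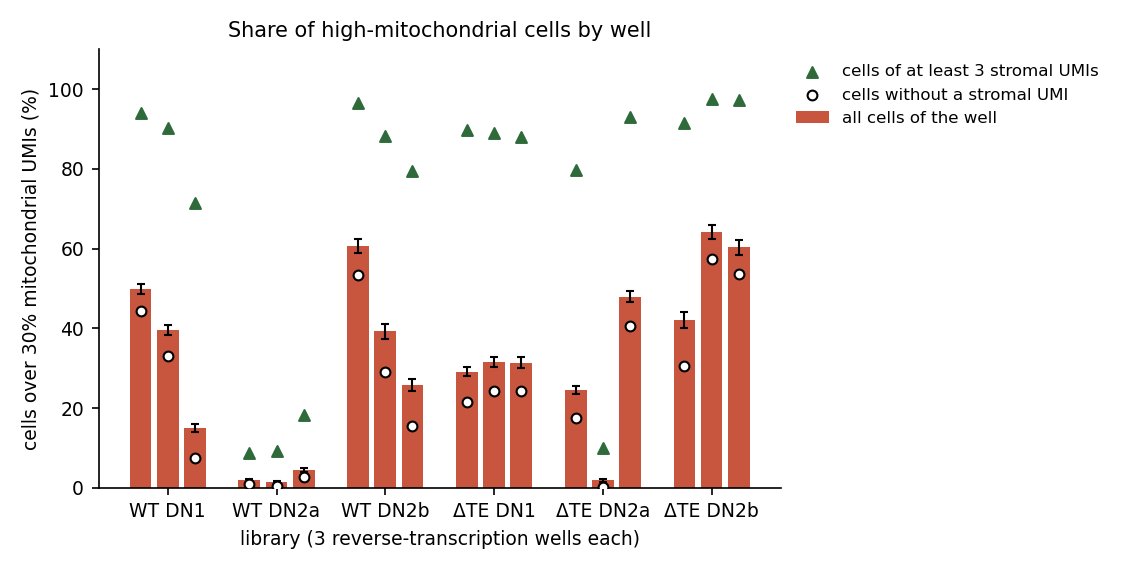
Bars show the percent of cells over 30% mitochondrial UMIs in each of the 3 reverse-transcription wells of the 6 libraries, with exact 95% binomial intervals. Triangles give the same percent among cells with at least 3 stromal UMIs and open circles among cells without one, and in every well the triangle lies above the bar and the circle below it.

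The high-mitochondrial cells were rich in stromal cells. The stromal list held 14 genes, among them the collagens Col1a1, Col1a2, Col3a1 and Col4a1, the matrix proteins Fn1, Sparc, Bgn, Postn and Fstl1 and the cytoskeletal genes Acta2 and Cald1. Its summed level in the high class was 6735 CPM in WT DN1, 15070 in WT DN2a, 11219 in WT DN2b, 8075 in ΔTE DN1, 8248 in ΔTE DN2a and 8290 in ΔTE DN2b. In the low class it was 791, 3221, 1303, 439, 2123 and 631 CPM. The levels of the 2 classes did not overlap, and the mean log2 ratio was 3.05 ± 0.854 (SD, n = 6).

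Stromal UMIs were not spread evenly over cells. Cells with exactly 1 stromal UMI were about as frequent in both classes, at 2.90% to 5.78% of the high and 4.26% to 6.16% of the low class. Cells with at least 3 stromal UMIs made up 24.7%, 49.4%, 33.5%, 29.9%, 28.4% and 25.2% of the high class, in the order used so far, and 2.35%, 9.60%, 3.24%, 1.64%, 6.12% and 1.56% of the low class. When every cell was thinned to 150 non-mitochondrial UMIs, 27.2% to 51.4% of the high class and 3.32% to 11.5% of the low class kept any stromal UMI. Ptprc, which encodes the pan-leukocyte protein CD45 and was picked as a check after its values were seen, stood at 105 to 186 CPM in cells with at least 3 stromal UMIs and at 763 to 958 CPM in cells without one. Cells with at least 3 stromal UMIs are called stroma-marked cells from here on. They were deeper than the rest, with medians of 404.5 to 472 non-mitochondrial UMIs against 318 to 362 in cells without a stromal UMI.

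**Figure D2:**
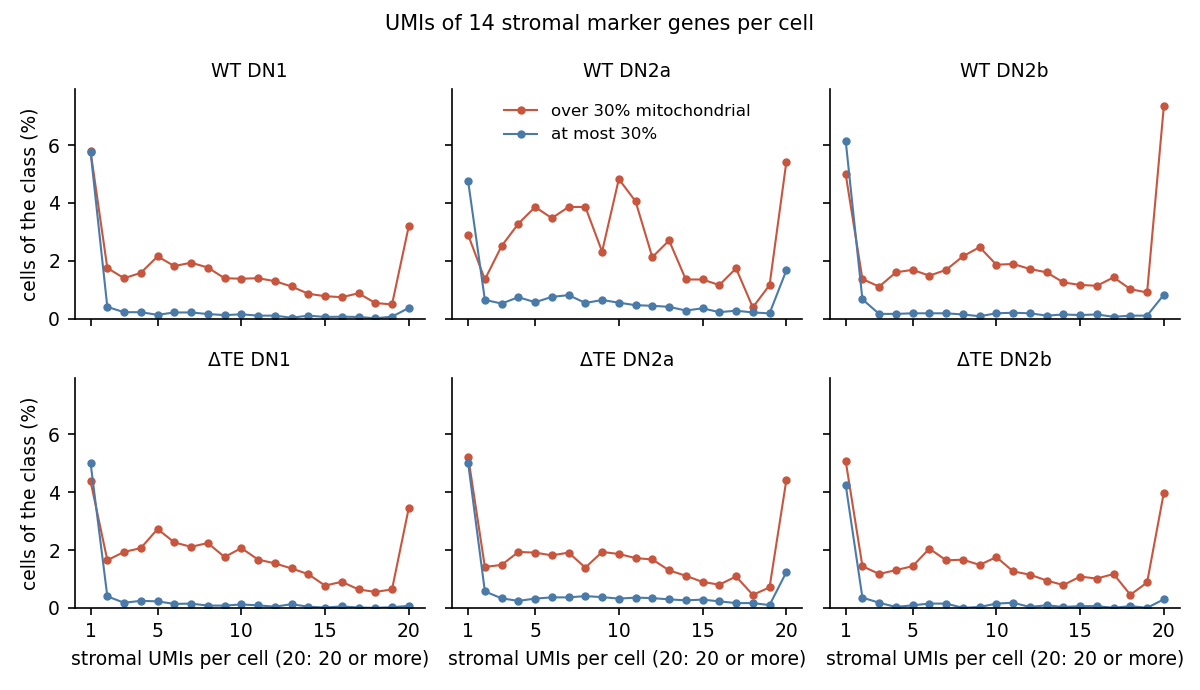
For each library, the percent of cells of a class (vertical axis) that held a given number of stromal UMIs from 1 to 19, or 20 and more (horizontal axis), in high-mitochondrial cells and in cells of at most 30%. Both classes start near 3% to 6% at 1 UMI, and from 2 UMIs on the high class lies above the low class in each library.

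Read the other way, most stroma-marked cells were over the limit. Of those cells, 85.1% were over 30% in WT DN1, 87.7% in WT DN2b, 88.9% in ΔTE DN1, 62.9% in ΔTE DN2a and 95.5% in ΔTE DN2b, but only 12.0% in WT DN2a. Of the cells without a stromal UMI, 28.8%, 31.7%, 23.4%, 21.2%, 48.7% and, in WT DN2a, 1.43% were over it. Stroma-marked cells took a like share of the cells in each well of a library, 9.75% to 10.8% in WT DN1 and 10.2% to 14.8% in ΔTE DN2a for example. The share of them over 30% followed the well. In ΔTE DN2a, 79.6%, 9.90% and 93.1% of the stroma-marked cells were over the limit in the 3 wells, and of the cells without a stromal UMI 17.6%, 0.253% and 40.6% were. How many stroma-marked cells a limit of 30% removed thus differed between wells of 1 library. What set the mitochondrial level of a well was not tested.

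Along the mitochondrial share, stromal RNA climbed steeply past the limit. In WT DN2b the stromal list stood at 161 CPM in cells of 0% to 10%, 556 at 10% to 20%, 1666 at 20% to 30%, 7639 at 30% to 40%, 17329 at 40% to 50% and 24623 CPM over 50%. The T-lineage list of that library, genes of the T-cell receptor complex and its signalling with Bcl11b, Tcf7 and Thy1, ran from 4412 CPM in the lowest bin over 4339 CPM at 20% to 30% to 786 CPM over 50%.

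**Figure D3:**
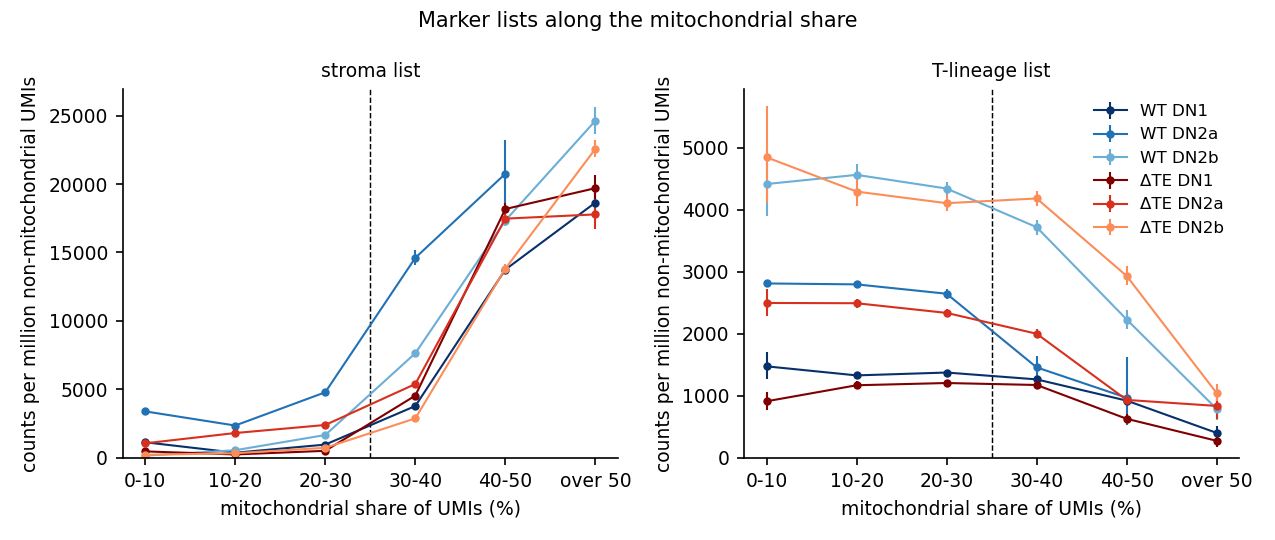
Summed stromal (left) and T-lineage (right) marker lists in CPM of non-mitochondrial UMIs (vertical axes) in cells binned by mitochondrial share (horizontal axis), 1 line per library with exact 95% Poisson intervals; the dashed line marks 30%. In the 5 libraries with cells over 50% the stromal list reaches 17781 to 24623 CPM there, and the T-lineage list falls to 1041 CPM or less.

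Over all genes, the 2 classes differed broadly. edgeR's quasi-likelihood test with the library as a block called 2616 of 10886 genes higher in high-mitochondrial cells (24.0% of genes tested) and 3051 lower (28.0%) at an adjusted p of 0.05. The genes that were higher moved further: 1367 were at least 2-fold higher and 871 at least 4-fold, whereas 16 were at least 2-fold lower. The median over all genes tested was -0.07 on the log2 scale. In bulk sums like these, more cells of a type and more RNA per cell cannot be told apart.

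The highest named genes included Eda, Slc7a2, Mme, Jam2, Kif21a, Prrx1, Srrm3, Gpc6 and Tcaf1, with log2 ratios of 3.36 to 3.72. Prrx1, a homeobox factor of mesenchymal cells, stood at 542, 940, 760, 588, 566 and 534 CPM in the high class of the 6 libraries and at 39.3, 186, 63.7, 28.2, 86.4 and 28.9 CPM in the low class. The groups did not overlap, and the log2 ratio was 3.41 ± 0.194 (SE, adjusted p = 1.46e-09). Gpc6, a cell-surface heparan sulfate proteoglycan, had a log2 ratio of 3.37, and Eda, a ligand of the tumour necrosis factor family, 3.72. Of the 14 stromal genes 12 passed the filter on low counts and all 12 of these were called higher, against 24.0% of all genes tested. Bgn, Col1a2 and Fstl1, the called members with the most UMIs, had log2 ratios of 3.12, 3.06 and 3.16. Ebf1, a transcription factor of B cells that marrow stromal cells also make, was called higher as well (log2 ratio 3.34) and carried the list of B and plasmacytoid dendritic genes, of which no other member was called.

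The 10 lowest named genes were Tnfrsf9, Ms4a4b, Slc15a1, Chd7, Gzmb, Tox2, Ccr2, Sox13, Il17rb and Soat2, with log2 ratios of -1.05 to -0.87. Ptprc was lower in 6 of 6 libraries, at 402 to 693 CPM in the high and 763 to 947 CPM in the low class. The counts that follow are to be read against the 28.0% of all genes called lower and the 24.0% called higher. Of 10 tested T-lineage genes 6 were called lower and none higher. Thy1, a surface protein of early T and ILC progenitors, had a log2 ratio of -0.47, Tcf7, a Notch-induced T-cell factor, -0.40, and Bcl11b -0.38 ± 0.0887 (SE, adjusted p = 0.00202). Of 11 tested ILC and NK genes 9 were lower, among them Zbtb16, which encodes the ILC factor PLZF (-0.73), Gzma (-0.48) and Nkg7 (-0.54), and Rora was higher (1.03). Of 8 multipotent progenitor genes 7 were lower, Kit (-0.47), Bcl11a (-0.53) and Erg (-0.46) among them, and Meis1 was higher. Of 8 monocyte and macrophage genes 6 were lower, with Ccr2 at -0.92, Mpo at -0.66 and Tyrobp at -0.38. The 3 tested mast cell, basophil and megakaryocyte genes, Cpa3, Itga2b and Mcpt8, were all lower. Neutrophil genes were too rare to be tested.

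Genes of the cell cycle were lower too. All 23 S-phase genes and 26 of 27 genes of G2 and M phase were called lower, against 28.0% of all genes tested. Their medians were -0.44 and -0.38 against -0.07 over all genes. Top2a, a DNA topoisomerase of dividing cells, stood at 715 to 1089 CPM in the high class and at 896 to 1318 CPM in the low class (log2 ratio -0.35). In stroma-marked cells the summed list of G2 and M phase was lower in both classes, 1378 to 1862 CPM in the high and 1920 to 2916 CPM in the low class, against 5489 to 8606 CPM in cells without a stromal UMI. Stromal RNA was thus higher in the class where each of these groups was lower. Its part in these differences was tested only by leaving stromal cells out.

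A second test therefore left out every cell with a stromal UMI from both classes. Of the 9514 genes then tested, 56 were called higher (0.589%) and 32 lower (0.336%). The same number of cells drawn from all cells of each class gave 2428 higher and 2007 lower genes. Of the 2616 genes called higher in all cells, 1518 could still be tested and 26 were still called higher, and 6 were called lower. Of the 3051 genes called lower, 3037 could be tested, 23 were still called lower and 13 were called higher. Leaving out the cells with a stromal UMI brought the T-lineage list sum from a mean log2 ratio of -0.44 to 0.07, and the multipotent progenitor list from -0.46 to -0.09. Ptprc went from -0.47 to 0.06 (adjusted p = 0.661 without stromal cells).

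**Figure D4:**
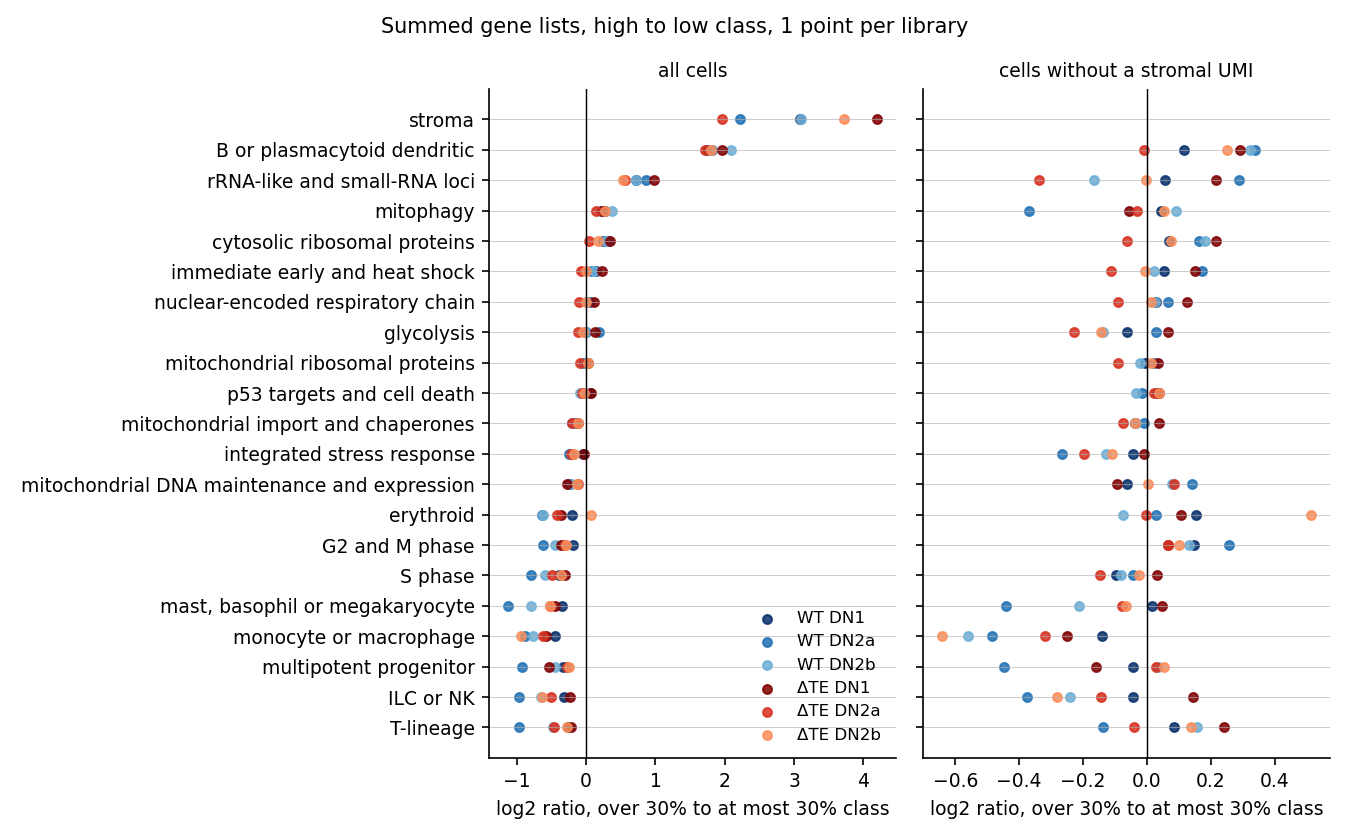
Log2 ratio of summed gene lists, high to low class (horizontal axes, on different scales), 1 point per library, in all cells (left) and in cells without a stromal UMI (right, where the stromal list is 0 by construction). On the left the stromal list lies at 1.96 to 4.20 and the blood lineage lists mostly below 0, other than the B or plasmacytoid dendritic list with Ebf1; on the right the T-lineage list lies at -0.14 to 0.24 and the monocyte list at -0.64 to -0.14.

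In cells without a stromal UMI, high-mitochondrial cells carried more RNA of a few T-cell and cell cycle genes. Of all genes tested in these cells 0.589% were called higher and 0.336% lower. Cd3g, a chain of the T-cell receptor complex, stood at 129, 425, 1009, 50.1, 201 and 821 CPM in the high class of the WT libraries started from DN1, DN2a and DN2b and then the ΔTE libraries in that order, and at 104, 391, 707, 32.4, 177 and 598 CPM in the low class. It was higher in 6 of 6 libraries, with a log2 ratio of 0.41 ± 0.0572 (SE, adjusted p = 8.05e-08), whereas in all cells it was -0.10 (adjusted p = 0.339). Cd3e was the other T-lineage gene called, and 8 of the 10 tested were not. Bcl11b was higher in 5 of 6 libraries but not called (log2 ratio 0.17, adjusted p = 0.0851). Mki67, which marks dividing cells, was at 814 to 1307 CPM against 668 to 1116 CPM, higher within each library (0.25 ± 0.0433, adjusted p = 4.50e-05). In all, 6 of 27 genes of G2 and M phase were called higher, Bub1, Nusap1, Mki67, Cenpe, Cenpf and Smc4, and none lower, while none of the 23 S-phase genes was called. Cytosolic ribosomal protein genes gave 8 higher of 82 and none lower, and counts of this family are uncertain because its many pseudogenes are nearly identical in sequence.

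Some ILC and monocyte genes were lower in the same comparison. Of 10 tested ILC and NK genes 4 were called lower and none higher, against 0.336% lower and 0.589% higher of all genes tested. The summed list had a mean log2 ratio of -0.16 ± 0.187 (SD, n = 6) with 1 library higher. Icos, a costimulatory receptor of ILC2s and T cells, was at 2.47, 27.4, 11.9, 2.68, 11.3 and 62.2 CPM in the high class and 2.88, 9.35, 56.1, 3.81, 20.1 and 152 CPM in the low class, lower in 5 libraries and higher in WT DN2a, where the high class held 2 UMIs of it (log2 ratio -1.25 ± 0.188, adjusted p = 6.65e-07). Rora, a nuclear receptor needed for ILC2s, had a log2 ratio of -0.60 ± 0.104 (adjusted p = 3.38e-05), against 1.03 in all cells. It was at 14.2, 27.4, 75.3, 29.5, 74.5 and 142 CPM against 26.4, 45.1, 165, 23.6, 83.0 and 244 CPM, lower in 5 libraries. Id2, an inhibitor of E proteins that ILCs require, had -0.54 and Gzmb, a cytotoxic granule protease, -0.49. Of 6 tested monocyte genes Ccr2 (-0.49) and Lyz2 were lower, and H2-Aa, a class II antigen-presenting molecule, had the lowest log2 ratio of the 32 genes, -1.84 ± 0.252 (adjusted p = 6.75e-08). H2-Aa was rare, at a mean of 4.63 CPM in the high and 16.0 CPM in the low class of all cells. By the same naming rule the lowest genes also held Lgals3 (-1.06), Tnfrsf9 (-0.80), Il31ra (-0.76), Hmga2 (-0.64), S100a4 (-0.56), Fam129a (-0.56), Sox13 (-0.51) and Kpna1 (-0.43), and the highest Trp53inp1 (0.55), Nfia (0.53), Tfdp2 (0.46), Gbp7 (0.39), Ptprf (0.37), Ncoa7 (0.32) and Pcf11 (0.31). The rule counted directions after TMM scaling, and by unscaled CPM Nfia and Tfdp2 were slightly lower in the high class of WT DN2a, at 41.1 against 41.5 and 54.8 against 55.3 CPM.

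**Figure D5:**
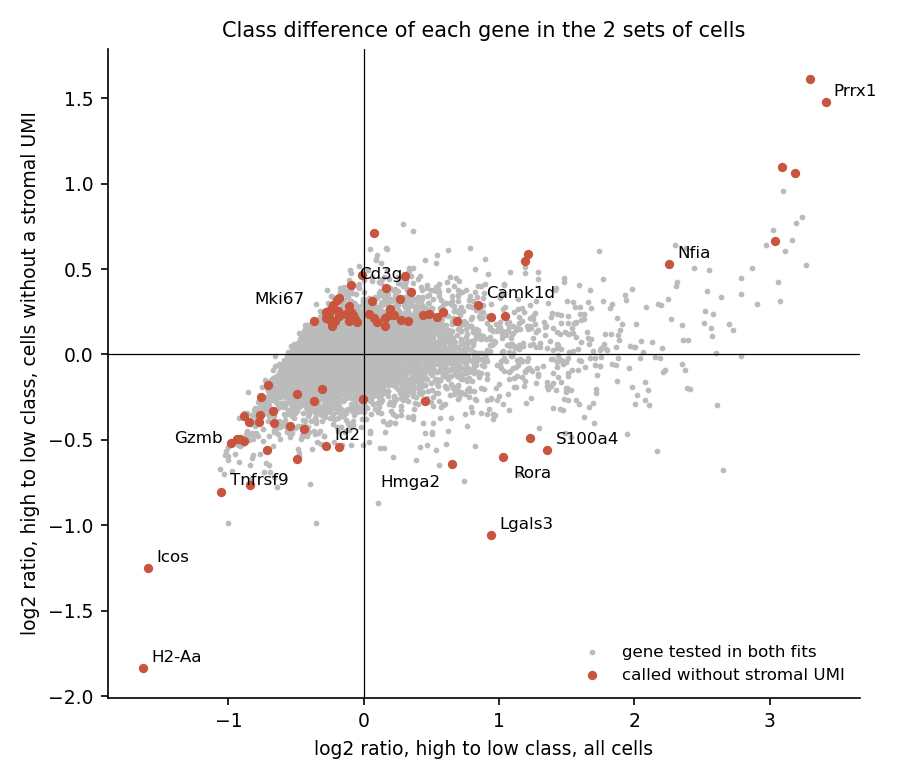
Each point is a gene tested in both sets of cells, with its log2 ratio of high to low class in all cells (horizontal axis) and in cells without a stromal UMI (vertical axis); coloured points were called in the latter. Rora, Lgals3, S100a4 and Hmga2 lie to the right of 0 and below it, and most grey points lie near 0 on the vertical axis.

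Some stromal RNA was left in this second comparison. Prrx1, which is not on the stromal list, was still higher in 6 of 6 libraries (log2 ratio 1.48 ± 0.259, adjusted p = 3.96e-05), and Sned1 and Col6a2 were among the 56 genes as well. Of the 56 genes 13 were called whichever library was left out, Cd3g, Mki67, Nusap1, Camk1d and Prrx1 among them, and of the 32 lower genes 8 were, Icos, Rora, Id2, Gzmb, Ccr2, Il31ra, Kpna1 and S100a4. When the low class was also drawn to the same share of each well, 40 of the 56 and 26 of the 32 were called again in the same direction. Leaving out WT DN1 kept 22 of the 56, leaving out WT DN2b 25, and 15 of the 32 were kept without WT DN2b. The part of leftover stromal RNA in these values was not tested.

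The nuclear genes that supply the mitochondria are to be read against the 24.0% of all genes called higher and the 28.0% called lower in all cells. Of 80 tested respiratory-chain genes 21 were higher and 11 lower in all cells, with a median log2 ratio of 0.06, and none was called without stromal cells. The summed list lay at 9989 to 11294 CPM in the high class and 9930 to 11332 CPM in the low class. Genes of mitochondrial ribosomal proteins gave 7 higher and 9 lower of 75, and the summed list had a mean log2 ratio of -0.02 ± 0.0447 (SD, n = 6). Import factors and chaperones gave none higher and 9 lower of 33, a share of lower genes close to that of all genes, with Hspd1 (-0.37), the matrix chaperonin, and Hspa9 (-0.24). Factors of mitochondrial DNA upkeep and expression gave 1 higher and 7 lower of 26, with Nrf1 (-0.34) and Lrpprc (-0.29). None of the 75, 33 and 26 genes was called in cells without a stromal UMI.

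Stress and death genes did not move as 1 group, and their counts are read against the same shares of all genes. Of 21 tested p53 targets and cell death genes 10 were higher and 2 lower in all cells, Cdkn1a, a cell cycle inhibitor, with a log2 ratio of 1.18, and 1 of 16 was called without stromal cells, Trp53inp1. The summed list differed by -0.02 ± 0.0635 and 0.01 ± 0.0296 (SD, n = 6) in the 2 sets. Of 11 mitophagy genes, which serve the removal of damaged mitochondria, 6 were higher in all cells, among them the receptor Sqstm1 (0.82) and the kinase Pink1 (0.36), and none of 9 was called without stromal cells. The summed mitophagy list was higher in 6 of 6 libraries in all cells (mean log2 ratio 0.25 ± 0.077, SD) and in 3 of 6 without stromal cells. The integrated stress response gave 7 higher and 6 lower of 15, and 0 of 14 without stromal cells. Its summed list was lower in 6 of 6 libraries both in all cells (-0.16 ± 0.090, SD) and without stromal cells (-0.13 ± 0.095, SD). Of 14 immediate early and heat shock genes 6 were higher and 1 lower in all cells, and none of 12 was called without stromal cells. Of 15 glycolysis genes 4 were higher and 4 lower, about the shares of all genes, and none was called without stromal cells. The 2 called loci that resemble ribosomal RNA were higher in all cells, CT010467.1 with a log2 ratio of 0.88 and AC149090.1 with 0.49, and without stromal cells CT010467.1 had 0.01 (adjusted p = 0.980). Lars2, which is on the same list, was the 1 member called there, lower with a log2 ratio of -0.26 (adjusted p = 0.00883), after -0.01 in all cells.

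Within stroma-marked cells the 2 classes differed less than in all cells. Of 8069 genes tested 117 were higher (1.45%) and 122 lower (1.51%) in the high class. The stromal list itself had a mean log2 ratio of 0.11 ± 0.197 (SD, n = 6). Both classes held only cells with at least 3 UMIs of this list, so its level cannot tell whether their stromal RNA was equal. Off the list, Prrx1 (0.57), Gpc6 (0.51), Mme (0.76) and Ebf1 (0.46) were called higher in the high class. On the list, Cald1 was called higher (0.40) and Acta2 lower (-0.60). Eda was higher again (1.21), while lower genes included the cell cycle gene Cenpa (-1.35) and the leukocyte genes Itgb7 (-1.26) and Cd37 (-1.21). The T-lineage list stood at 326 to 733 CPM in the high and 498 to 1129 CPM in the low class, lower in 6 of 6 libraries. Stroma-marked cells of the low class thus held more T-lineage and cycling RNA than those of the high class, and how many held RNA of a second cell was not tested.

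The share of cells over the limit also differed between blood lineages, as a description with no test. Among cells without a stromal UMI that held at least 2 UMIs of a list, T-lineage cells were over 30% in 29.5% of WT DN1, 0.863% of WT DN2a, 32.1% of WT DN2b, 24.5% of ΔTE DN1, 19.3% of ΔTE DN2a and 49.9% of ΔTE DN2b. Cells with monocyte or macrophage UMIs were over it in 24.8%, 1.52%, 15.7%, 15.6%, 13.3% and 34.6%. This is below the share of all cells without a stromal UMI in 5 of 6 libraries. Cells with multipotent progenitor UMIs were below that share in every library (27.4%, 0.518%, 28.3%, 18.6%, 18.6% and 46.7%). So were cells with mast cell, basophil or megakaryocyte UMIs, and those with ILC or NK UMIs other than in ΔTE DN1. Cells picked by these lists were also deeper in each library than all cells without a stromal UMI, whose medians were 318 to 362 non-mitochondrial UMIs. The medians were 405 to 491.5 for monocyte, 449.5 to 513 for multipotent progenitor and 446 to 506.5 for mast cell, basophil or megakaryocyte UMIs. For ILC or NK UMIs they were 379 to 458.5, and for T-lineage UMIs 356 to 466. The part of depth was not tested. Cells with at least 2 UMIs of antigen-presenting genes were over it in 13.3% of 98 cells in WT DN1 and 7.26% of 124 cells in ΔTE DN1, and the other libraries had 27 such cells or fewer.

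Between genotypes the high-mitochondrial cells are described without a test, with exact 95% intervals that cover counting error only. Bcl11b stood at 93.0 CPM in ΔTE DN1 and 266 CPM in WT DN1, a log2 ratio of -1.52 (-1.76 to -1.28), against -1.39 in the low class. From DN2b it was 622 against 832 CPM (-0.42, -0.54 to -0.30; low class -0.65), and from DN2a 239 against 245 CPM (-0.04, -0.48 to 0.43; low class -0.93), where WT DN2a gave 47 UMIs of the gene and 49.4% of its high-mitochondrial cells were stroma-marked. Without cells with a stromal UMI the 3 ratios were -1.43, -0.62 and -0.67 for DN1, DN2a and DN2b. The DN2a ratio without stromal cells had an interval of -1.10 to -0.12 and rested on 40 UMIs in WT. That interval overlaps the one of all high-mitochondrial cells.

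Some ILC genes were higher in the ΔTE libraries and others were not. Zbtb16 had log2 ratios of 0.79, 2.30 and 1.59 for DN1, DN2a and DN2b in the high class, against 0.56, 1.14 and 1.09 in the low class. Gzma, a granule protease of NK and ILC precursors, had 0.77, 1.48 and 1.25, and Fcer1g, a signalling adaptor of innate cells, 0.75, 1.80 and 2.37. Id2 had 0.18, -0.44 and 1.00, Rora 0.14, 0.36 and 0.04, and Icos 0.12, -0.74 and 2.66, where the WT high class held only 3 to 11 UMIs of Icos. The WT DN2a high class held only 16 UMIs of Zbtb16 and 12 of Fcer1g. Without cells with a stromal UMI, Zbtb16 had 0.90 from DN1 and 1.69 (0.93 to 2.57) from DN2a. In the same cells Gzma had 0.85 and 1.03, Fcer1g 0.80 and 1.01, and Id2 0.16 and 0.31. The ratios of Rora in cells without a stromal UMI were 1.05, 1.44 and 0.92 for DN1, DN2a and DN2b. The WT DN2a high class held only 2 UMIs of Rora and 3 of Id2 in these cells. The DN2a intervals of both genes spanned 0, at -0.46 to 4.51 for Rora and -1.32 to 2.63 for Id2. Cd3g was lower from DN1 (-1.53) and DN2a (-0.53) and had -0.02 (-0.15 to 0.11) from DN2b. Without cells with a stromal UMI Cd3g had -1.37, -1.08 and -0.30 (-0.44 to -0.16 from DN2b). Camk1d, a calcium-dependent kinase, was higher from DN1 (0.82) and DN2a (0.66) and lower from DN2b (-1.07). Whether the class difference depended on genotype was tested across all genes over 3 libraries each. 1 gene of 10886 was called (0.00919%), and 218 had an unadjusted p under 0.05.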

How the data were processed

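The data were UMI counts of 28048 genes per cell barcode from 6 sci-RNA-seq3 libraries, with 8007395 to 14555100 UMIs each. The authors deposited raw counts per gene and barcode, without normalization. The submitters' processing notes name the mouse build mm9, and the aligner and counter are not given in the sources used here. No coordinates are printed.

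The limits of 200 genes, 2000 UMIs and 30% are those the study states, but they leave fewer cells than the study kept. Doublets were treated only through the UMI limit. UMIs of non-mitochondrial genes were summed per library and class (12 sums) and tested with edgeR 4.0.16 in R 4.3.3 (quasi-likelihood, TMM, filterByExpr, library as a block, Benjamini-Hochberg over all genes tested, threshold 0.05). The same test was run on cells without a stromal UMI. The members and gene lists were chosen with earlier results of these data known. Named genes were the 10 highest and 10 lowest called genes of at least 20 CPM with 1 direction in 6 libraries after TMM scaling, the 3 called members of each list with the most UMIs, and 17 genes the study names, of which Ptcra, Il2rb and Csf1r had too few counts to be tested, and a few genes that met the rule are not reported here. Lists of nuclear-retained and mitochondrial-DNA-like loci had 0 genes in the tables. A planned permutation test of the ribosomal share of mitochondrial UMIs is not printed, since that share is not independent of the limit. Intervals are exact 95% Poisson or Clopper-Pearson intervals and cover counting error only. On simulated data the test recovered 74% of genes changed 1.5-fold and 91% of those changed 2-fold in the comparison of classes over 10886 genes. Of its calls there, 5.71% were unchanged genes. The simulation changed only a small part of the genes, as many up as down, whereas the real comparison called 24.0% higher and 28.0% lower. Its 5.71% is therefore not the error rate of the real calls. Alternatives covered DESeq2 1.42.0, the low-count filter, other mitochondrial limits, matched depth or wells, and leaving out each library. Python 3.11.15 with numpy 2.4.6, pandas 2.3.3, scipy 1.17.1 and matplotlib 3.10.9 was used for the rest.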

Additional observations from a re-analysis of the deposited data

Results flagged for a closer look

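The test of whether the difference between high-mitochondrial and low cells depended on genotype called 1 gene, Mid1, an X-linked ubiquitin ligase of microtubules. In the WT libraries from DN1, DN2a and DN2b it stood at 1189, 496 and 781 CPM in the high class and at 1172, 529 and 638 CPM in the low class. In the ΔTE libraries it was at 210, 229 and 170 CPM in the high class and 107, 95.4 and 72.3 CPM in the low class. The class log2 ratio was larger in ΔTE by 1.04 ± 0.136 (SE, edgeR quasi-likelihood test, adjusted p = 0.0369, 3 libraries of each genotype). The same test called no gene without cells with a stromal UMI, at matched depth, at a limit of 20%, or without WT DN1, WT DN2a, WT DN2b or ΔTE DN2b, and the part of stromal cells in this difference was not tested further.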

How the results depend on the processing

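DESeq2, no low-count filter, matched depth, matched wells and leaving out each library kept both counts of called genes in all cells within 1.5 times their value. A limit of 20% gave 1494 higher and 1017 lower genes. Without cells with a stromal UMI there were 56 and 32, with the low class also drawn to each well's share 102 and 48, without cells of at least 3 stromal UMIs 225 and 70, and in only those cells 117 and 122. The same number of cells drawn from all cells gave 2007 lower genes. Drawing cells by well without stromal cells, leaving out or keeping only cells of at least 3 stromal UMIs, drawing the same number of cells, and leaving libraries out of the test without stromal cells were chosen after seeing the data. Leaving out each library in turn from the cells without a stromal UMI gave 22 to 71 higher (22 without WT DN1, 29 without WT DN2b) and 17 to 39 lower genes (17 without WT DN2b, 19 without ΔTE DN2b). The dependence on genotype was called for 0 genes at matched depth, without stromal cells and at 20%, for 2 at 40%, and for 0 to 21 with a library left out (21 without ΔTE DN2a, 2 without ΔTE DN1, 0 without each of the other 4).

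At 20% the mean log2 ratios of the monocyte and progenitor lists were -0.45 and -0.14. At 40% those of the T-lineage, ILC, progenitor and monocyte lists were -1.09, -1.07, -1.08 and -1.31, and for over 40% against at most 20% they were -1.14, -1.22, -1.12 and -1.55, with the stromal list at 4.70. Without cells with a stromal UMI they were 0.073, -0.16, -0.089 and -0.40. The Bcl11b log2 ratio of ΔTE to WT in the high class was -0.82 (DN2a) and -0.54 (DN2b) at 20%, 0.84 and -0.072 at 40% and also for over 40% against at most 20%, and -0.62 and -0.67 without stromal cells. WT DN2a had 36 cells over 40%.

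Several genes changed sign. At 20% the log2 ratio was -0.026 for Aldoa, -0.031 for Atp5d, 0.16 for Mki67, 0.048 for Nusap1, 0.023 for Pnpt1, -0.029 for Rplp1, 0.0068 for Runx1, 0.087 for Smc4 and -0.011 for Tpi1. Without stromal cells it was -0.11 for Aldoa, -0.031 for Atp5d, 0.17 for Bcl11b, 0.00078 for Bcl2, -0.0047 for Bnip3l, -0.15 for Btg2, 0.32 for Bub1, 0.15 for Casp8, 0.41 for Cd3g, 0.072 for Erg, 0.067 for Gzma, 0.13 for Hbb-bt, -0.64 for Hmga2, 0.078 for Itga2b, 0.029 for Kit, -1.06 for Lgals3, 0.25 for Mki67, 0.037 for Mrps28, 0.29 for Nusap1, 0.096 for Pde4d, -0.0074 for Pink1, 0.063 for Ptprc, -0.60 for Rora, 0.11 for Rrm1, 0.068 for Runx1, -0.036 for Runx2, -0.56 for S100a4, 0.17 for Smc4, -0.065 for Sqstm1, 0.078 for Tcf7, 0.0017 for Thy1, 0.052 for Tomm70a, 0.13 for Top2a, -0.090 for Tpi1 and 0.054 for Tyrobp. Beyond the cells an alternative itself removed, the cause was not tested. The 240 high-mitochondrial cells of WT DN2a without a stromal UMI limit the precision of that library most.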
